A study of Homo sapiens with 108 samples.

Results

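Messenger RNA levels in HMV-II, an established human melanoma cell line, were compared between cells taken 3 h after 2 Gy of carbon ions and unirradiated cells. The comparison used 6 of the 108 arrays of the study, the 3 arrays titled as HMV-II carbon ions 2 Gy 3 h and the 3 titled as HMV-II carbon ions 0 Gy. The study exposed 6 melanoma lines (HMV-II, HMV-I, 92-1, C32TG, Colo679 and MeWo) to carbon ions or X-rays and hybridised total RNA to CodeLink single-colour whole-genome arrays. Each line had 6 groups of 3 arrays, namely 2 Gy at 1 h, 2 Gy at 3 h and 0 Gy for each of the 2 beams. Further groups used here were HMV-II 1 h after 2 Gy of carbon ions, HMV-II 3 h after 2 Gy of X-rays with its own 0 Gy arrays, and the carbon-ion 3 h and 0 Gy arrays of the other 5 lines. All HMV-II groups are 1 cell line, the labels give no harvest time for the 0 Gy arrays, and nothing in them tells whether replicate arrays stem from separate cultures. The p-values below therefore measure the spread between arrays, which may be technical.

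Ionising radiation breaks DNA, and carbon ions deposit their energy in denser tracks than X-rays do. Breaks activate the ATM and CHK2 kinases, which stabilise the transcription factor p53. Its targets include inhibitors of the cell cycle, repair enzymes, death receptors and feedback regulators of p53 itself. Cells with damaged DNA also stop before mitosis, and genes whose transcription peaks in G2 phase and mitosis then fall. Many of these late cell-cycle genes share 2 short promoter motifs, a cell cycle homology region bound by the DREAM and MuvB complexes and CCAAT boxes bound by NF-Y.

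The array held 54359 probes, of which 28791 passed filters on level and missing values and had a value on all 18 HMV-II arrays. Of the 54359 probes, 5258 to 5811 had no value on the carbon 3 h arrays, against 3302 to 5508 on the 0 Gy arrays. The median intensity as deposited was 1.12 to 1.21 on the carbon 3 h arrays and 1.11 to 1.20 on the 0 Gy arrays, and arrays of a group correlated at r of 0.993 or more over log2 values. Intensities below are normalized, on a linear scale whose unit is arbitrary, and changes are log2 differences with their standard error. Of the 22 melanocyte markers with a probe some were bright and others dim. PMEL averaged 666 in carbon 3 h cells and 650 in 0 Gy cells, MLANA 519 and 422, and TYR 336 and 316. SOX10 averaged 1.52 and 1.69, PAX3 0.91 and 1.11, and ERBB3 0.82 and 0.95. Markers of a dedifferentiated melanoma state varied as well, with S100A4 at 541 and 461, ITGA3 at 91.4 and 84.5, and AXL at 2.44 and 2.57. The summed intensity of the 8 keratinocyte markers with a probe was 4.36 to 4.66 on carbon 3 h arrays and 4.41 to 5.91 on 0 Gy arrays, and that of 10 leukocyte markers was 6.00 to 7.57 and 7.10 to 7.38. Among 9 fibroblast markers LUM (26.2 in carbon 3 h cells, 30.7 in 0 Gy cells) and FAP (19.1 and 18.4) stood out, while THY1, POSTN, COL1A2 and COL3A1 were all under 1. The sum of 8 endothelial markers was 11.8 to 12.2 on carbon 3 h arrays and 10.6 to 13.3 on 0 Gy arrays, of which PECAM1 made up 9.11 and 8.82, and none of these markers was listed at 0. EMCN, an endothelial marker near the filter on level, was the marker of another cell type that passed (0.38 on 1 of its 2 probes). Its other probe, counted in the sum, lacked a value on an X-ray 0 Gy array and was outside the main fit. That probe averaged 0.80 in carbon 3 h cells and 0.43 in 0 Gy cells, a change of 0.90.

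After carbon ions, p53 target genes stood higher and genes of G2 phase and mitosis stood lower. Of 28791 probes, 2479 (8.61%) passed limma at an adjusted p of 0.05, 594 higher (2.06%) and 1885 lower (6.55%) in carbon 3 h cells. Among 12577 named genes, each read from its brightest probe, 375 rose (2.98%) and 651 fell (5.18%), 8.16% in all. The 3 arrays of one group lay wholly above or below those of the other for 31.8% of named genes, 14% higher and 17.8% lower with carbon ions. Separate groups were also a condition for picking the largest rises and falls named below, so their separation is no finding. The called changes were small. The median size of a called change was 0.46 on the log2 scale, and 8 probes rose and 26 fell by more than 2-fold. The count of called probes moved with single arrays. It was 1250 without array 1 and 1501 without array 2 of the carbon 3 h group, and 1408 without array 1 and 1399 without array 2 of the 0 Gy group. On values as deposited it was 1521, of which 36.2% were higher, against 24.0% after quantile normalization.

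**Figure D1:**
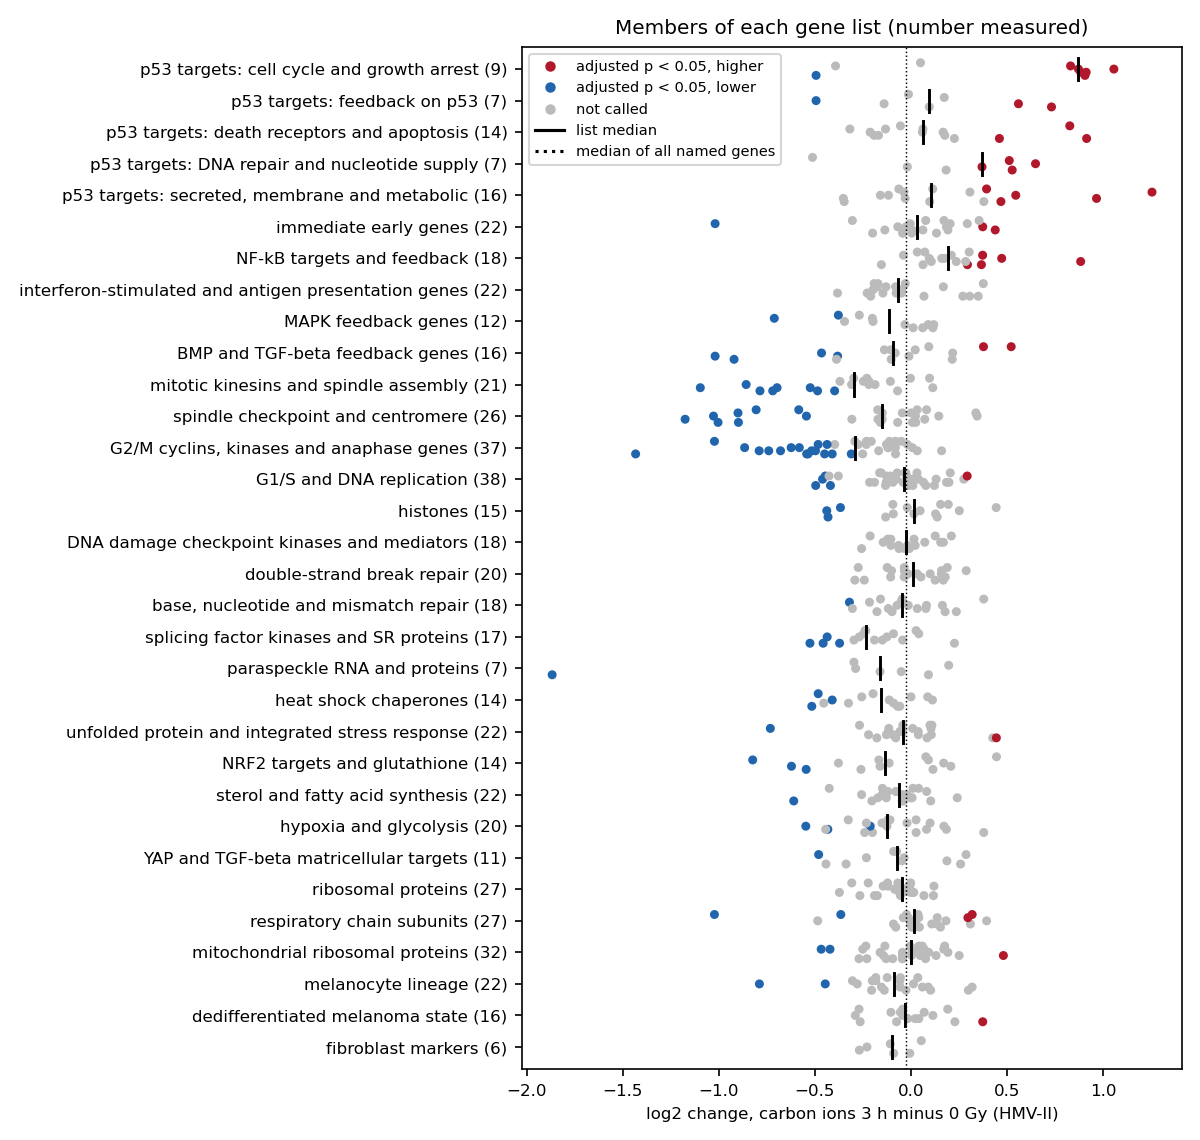
Log2 change (carbon ions 3 h minus 0 Gy) of every measured member of the gene lists with 6 or more measured genes, in HMV-II. Red and blue points passed at an adjusted p of 0.05, grey points did not, the solid bar is the list median and the dotted line is the median of all named genes (-0.03). The growth-arrest list of p53 targets has its median at 0.87, and the 3 lists of G2 phase and mitosis have theirs at -0.15 to -0.30.

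All gene lists used here were chosen with earlier results of these data known, so their counts describe the lists and are no test. Of 67 p53 targets in 5 joined lists, 52 were measured. Of these targets 20 rose and 1 fell, against 2.98% and 5.18% of all named genes. Their median change was 0.17, against -0.03 over all named genes. The growth-arrest genes moved furthest, with 6 of 9 higher. CDKN1A, which encodes the cyclin-dependent kinase inhibitor p21, read 486, 503 and 528 in carbon 3 h cells, against 248, 282 and 280 in 0 Gy cells. The groups did not overlap, and the change was 0.91 ± 0.10 (adjusted p = 1.75e-05). SESN2, a stress-induced inhibitor of mTORC1 signalling, read 9.97, 8.44 and 9.98 in carbon 3 h cells and 4.43, 4.92 and 4.27 in 0 Gy cells, a change of 1.06 ± 0.10 (adjusted p = 2.81e-06). Its relative SESN1 read 40.2, 45.2 and 42.3 in carbon 3 h cells and 22.4, 22.2 and 23.1 in 0 Gy cells (0.91 ± 0.11). All carbon 3 h arrays lay above all 0 Gy arrays for both sestrins. Separate groups were a condition under which the sestrins and CDKN1A were picked. GADD45A, a sensor of stress that binds p21 and PCNA, rose by 0.88 ± 0.09, and the polo-like kinases PLK2 and PLK3 rose by 0.87 ± 0.12 and 0.83 ± 0.12. CCNG1, which encodes cyclin G1, went the other way. It read 39.6, 42.8 and 48.0 in carbon 3 h cells, against 64.2, 56.6 and 62.7 in 0 Gy cells, a change of -0.49 ± 0.12 (adjusted p = 0.0146) that no longer passed with median centring (-0.36, adjusted p = 0.0927) and on values as deposited (-0.33, adjusted p = 0.181).

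Genes that feed back on p53 included MDM2, the ubiquitin ligase that degrades it. MDM2 read 6.61, 5.86 and 6.54 in carbon 3 h cells and 3.57, 4.45 and 3.48 in 0 Gy cells. The groups were separate, and the change was 0.73 ± 0.11 (adjusted p = 3.77e-04). PPM1D, the WIP1 phosphatase that switches the damage signal off, rose by 0.56 ± 0.10. Of 14 measured death-receptor and apoptosis genes, 3 rose, against 2.98% of all named genes. FAS, the death receptor, read 10.1, 9.60 and 10.1 in carbon 3 h cells, against 5.35, 5.38 and 5.10 in 0 Gy cells (0.91 ± 0.08, adjusted p = 1.78e-06). TP53INP1, a p53 cofactor that promotes cell death, rose by 0.83 ± 0.10 and PHLDA3, an inhibitor of AKT, by 0.46 ± 0.11. BAX, PMAIP1 and BBC3, which act at the mitochondrion, did not pass: BAX changed by -0.05, PMAIP1 by 0.23, and BBC3, which lacked a value on 1 HMV-II array, by -0.06 in a fit that leaves missing values out.

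Of 7 measured repair and nucleotide-supply targets, 4 rose, against 2.98% of all named genes. POLH, the polymerase that copies past ultraviolet lesions, rose by 0.65 ± 0.10. The damage sensors of nucleotide excision repair, XPC and DDB2, rose by 0.53 ± 0.08 and 0.37 ± 0.10. RRM2B, a subunit of the p53-inducible ribonucleotide reductase, read 43.7, 53.1 and 67.8 in carbon 3 h cells and 34.5, 40.3 and 39.1 in 0 Gy cells (0.51 ± 0.13). Its 3 carbon 3 h arrays were spread more widely than its 0 Gy arrays but did not overlap them. The DDB2 groups did overlap, with 15, 11.7 and 15.1 in carbon 3 h cells and 11.8, 10.3 and 10.1 in 0 Gy cells, and the DDB2 call was lost in 4 of the 6 fits that left out 1 array. A further probe of XPC changed by -0.03, so its call rests on the brighter probe.

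Among 16 measured secreted, membrane and metabolic targets, 5 rose, against 2.98% of all named genes. INKA2, an inhibitor of the kinase PAK4, had the largest called rise among named genes with a value on all 18 HMV-II arrays. It read 10.7, 11.7 and 11.3 in carbon 3 h cells and 4.53, 4.87 and 4.73 in 0 Gy cells, a 2.39-fold difference (1.26 ± 0.09, adjusted p = 2.49e-07). Of its other kept probes, 1 changed by 0.99 and 1 by 0.05. ACER2, a Golgi ceramidase, rose by 0.97 ± 0.12, TIGAR, a regulator of glycolysis, by 0.55 ± 0.11, and DRAM1, an inducer of autophagy, by 0.47 ± 0.10. GDF15, a secreted stress cytokine, did not pass, with 560, 573 and 583 in carbon 3 h cells and 493, 584 and 531 in 0 Gy cells (0.10 ± 0.08, adjusted p = 0.453). Its values overlapped and lay 0.40 to 0.45 log2 units below the highest spot of the carbon 3 h arrays, near the top of the scale. ATF3, a stress-induced transcription factor, lacked a value on 1 HMV-II array outside these groups and was not in the main fit. It read 22.6, 17.8 and 21 in carbon 3 h cells and 9.92, 8.58 and 9.18 in 0 Gy cells, a change of 1.14 ± 0.12 when missing values were left out (adjusted p = 2.29e-05).

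**Figure D2:**
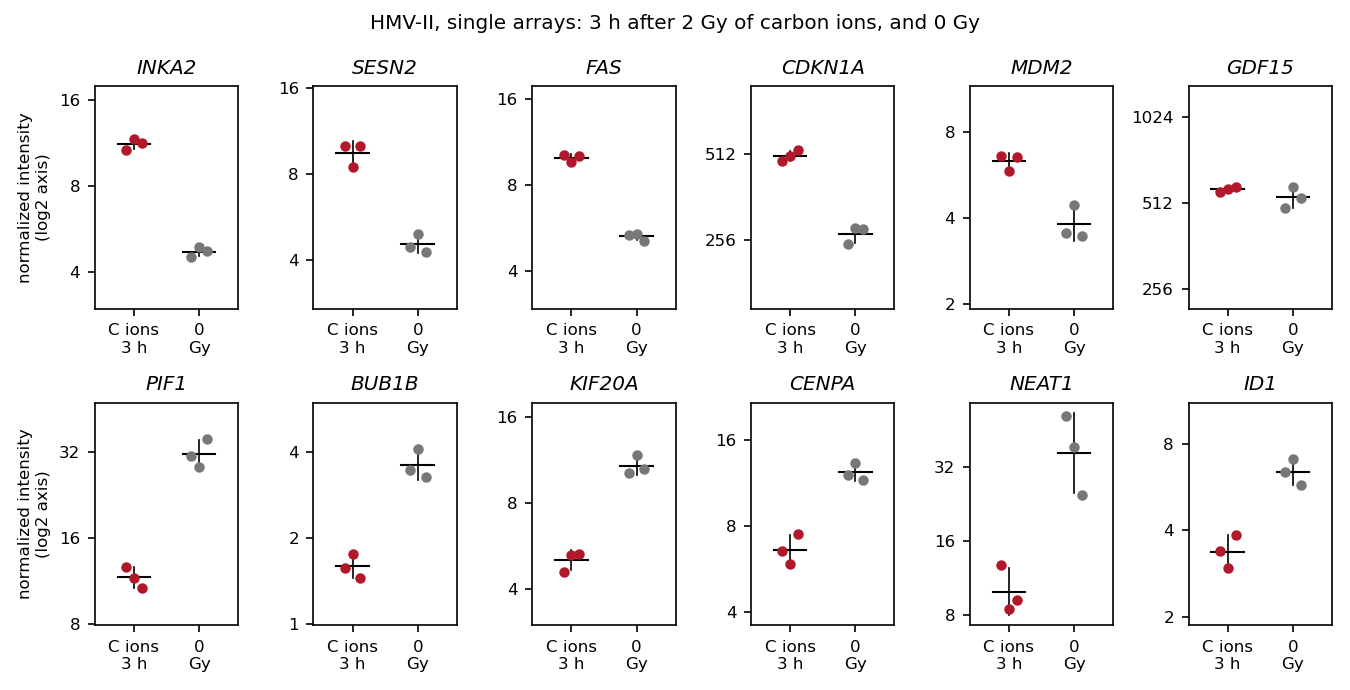
Normalized intensity on each of the 3 carbon-ion 3 h arrays (red, left) and the 3 carbon-set 0 Gy arrays (grey, right) of HMV-II, on a log2 axis. Horizontal bars are group means and vertical bars ± 1 SD of log2 values. The groups are separate for every gene shown except GDF15, and the 0 Gy arrays of NEAT1 are spread from 24.6 to 51.4. Genes shown as largest rises or falls were picked only if their groups were separate, so this is no finding for them.

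Outside the p53 lists, USP53, ENC1, EPHA2, RELB and BRAP were among the 15 largest rises. EPHA2, an ephrin receptor tyrosine kinase, read 71.6, 74.4 and 79.5 in carbon 3 h cells, against 38.7, 39.9 and 39.3 in 0 Gy cells (0.93 ± 0.09, adjusted p = 4.78e-06). ENC1, an actin-binding protein, read 8.28, 10 and 9.87 in carbon 3 h cells and 4.05, 5.05 and 4.28 in 0 Gy cells (1.08 ± 0.10). USP53, a member of the ubiquitin-specific protease family, rose by 1.09 ± 0.10 on its brightest probe, while its other probe changed by -0.12. BRAP, which binds BRCA1 and restrains RAS signalling, rose by 0.74 ± 0.14.

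Of 18 measured NF-kB genes 5 rose and 0 fell, against 2.98% and 5.18% of all named genes, with a median change of 0.19, against -0.03. RELB, the subunit of the non-canonical pathway, read 3.15, 3.38 and 3.37 in carbon 3 h cells, against 1.68, 1.98 and 1.72 in 0 Gy cells (0.88 ± 0.12, adjusted p = 1.52e-04). The inhibitors NFKBIE and NFKBIA rose by 0.47 ± 0.09 and 0.37 ± 0.11, TNIP1, which restrains the pathway with A20, by 0.37 ± 0.08, and RELA by 0.29. NFKBIA passed narrowly (adjusted p = 0.0458) and did not pass in 5 of the 6 fits that left out 1 array (adjusted p up to 0.192). Another probe of TNIP1 changed by -0.14. No interferon-stimulated or antigen-presentation gene passed among 22 measured.

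Lower levels were found for many late cell-cycle genes. Of 94 genes in 3 joined lists, 84 were measured; 33 fell and 0 rose, against 5.18% and 2.98% of all named genes. Their median change was -0.24, and 69 of 84 were below 0. The count of 33 stayed between 26 and 37 under the alternatives run. These lists too were chosen with earlier results of these data known, so the count describes them and is no test. CDK1, the mitotic kinase, lacked a value on 4 of the 18 HMV-II arrays and was left out. It read 48.8, 54.1 and 50.8 in carbon 3 h cells and 61.7, 71.7 and 60.0 in 0 Gy cells.

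Promoter sequences of 4 of these genes are shown because their letters carry the motifs named above. They are RefSeq windows on GRCh38.p14 of 300 bases, 250 before to 50 after the annotated start, read 5′ to 3′ on the gene's strand. Capitals mark TTTGAA or TTTAAA, the core of the cell cycle homology region, and CCAAT, each searched on both strands (CCAAT reads ATTGG and TTTGAA reads TTCAAA on the other strand), and no 2 matches overlapped.
PIF1 (chr15:64825598-64825897, minus strand): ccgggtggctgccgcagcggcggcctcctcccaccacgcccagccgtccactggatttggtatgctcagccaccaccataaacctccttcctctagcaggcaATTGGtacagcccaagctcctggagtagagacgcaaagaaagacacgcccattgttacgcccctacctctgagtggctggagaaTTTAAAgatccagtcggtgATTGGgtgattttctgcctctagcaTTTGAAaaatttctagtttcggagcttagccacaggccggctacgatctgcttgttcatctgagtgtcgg
KIF20A (chr5:138178862-138179161, plus strand): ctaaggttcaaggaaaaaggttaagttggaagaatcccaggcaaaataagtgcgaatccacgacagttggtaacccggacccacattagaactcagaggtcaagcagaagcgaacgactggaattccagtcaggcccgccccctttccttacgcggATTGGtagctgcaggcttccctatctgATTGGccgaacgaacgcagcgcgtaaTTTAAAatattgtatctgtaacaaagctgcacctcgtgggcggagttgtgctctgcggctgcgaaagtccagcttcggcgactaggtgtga
CENPA (chr2:26785806-26786105, plus strand): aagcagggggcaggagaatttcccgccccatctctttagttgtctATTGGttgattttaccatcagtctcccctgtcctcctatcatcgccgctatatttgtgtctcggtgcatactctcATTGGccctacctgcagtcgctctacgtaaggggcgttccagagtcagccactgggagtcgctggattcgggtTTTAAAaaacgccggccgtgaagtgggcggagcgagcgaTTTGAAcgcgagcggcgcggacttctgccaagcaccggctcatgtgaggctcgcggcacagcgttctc
HJURP (chr2:233854486-233854785, minus strand): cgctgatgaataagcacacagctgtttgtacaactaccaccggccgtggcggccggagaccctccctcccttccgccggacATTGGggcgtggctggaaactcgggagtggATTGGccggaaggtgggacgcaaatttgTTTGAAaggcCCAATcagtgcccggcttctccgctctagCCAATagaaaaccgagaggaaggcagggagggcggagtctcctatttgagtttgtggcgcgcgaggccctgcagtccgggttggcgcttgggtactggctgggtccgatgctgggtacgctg

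Both kinds of motif stood together in the window of 17 of the 26 fallen genes with an entry in the table (65.4%), of 22 of 44 list members that did not pass (50%) and of 9.49% of all 27305 genes. TTTGAA or TTTAAA was present for 19 of 26 fallen genes (73.1%), 30 of 44 that did not pass (68.2%) and 24.3% of all genes. CCAAT was present for 80.8%, 68.2% and 35.7% of the same sets. For p53 targets that rose, both kinds stood together in 1 of 16 windows. The motifs were thus common to the mitotic lists as a whole, in members that fell and in those that did not pass, and a match is a string of letters, not a shown binding site.

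PIF1, a DNA helicase of telomeres and replication forks, led the list. It read 12.7, 11.6 and 10.7 in carbon 3 h cells and 31.1, 28.4 and 35.4 in 0 Gy cells, 2.70-fold lower (-1.43 ± 0.15, adjusted p = 1.07e-05). The groups were far apart, and its other probe fell by 1.08. FAM83D, which anchors casein kinase to the spindle, read 9.80, 10.5 and 11.5 in carbon 3 h cells, against 20.9, 22.8 and 20.7 in 0 Gy cells (-1.02 ± 0.09, adjusted p = 1.10e-06). WEE1, the kinase that holds CDK1 inactive, fell by 0.87 ± 0.13 and the spindle-pole kinase AURKA by 0.79 ± 0.07. Cyclins fell too: CCNB1 changed by -0.68, CCNF by -0.58 and CCNA2 by -0.54. So did the anaphase regulators CDC20 (-0.48), ESPL1, the separase (-0.50), and PTTG1, the securin (-0.31). The G2/M list had 17 of its 37 measured genes lower in all, against 5.18% of all named genes.

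Among 21 measured kinesins and spindle-assembly genes, 8 fell, against 5.18% of all named genes. KIF20A, a kinesin needed for cytokinesis, read 4.6, 5.29 and 5.32 in carbon 3 h cells and 10.2, 11.7 and 10.5 in 0 Gy cells (-1.10 ± 0.12, adjusted p = 2.37e-05). KIF20B fell by 0.86, KIF18A, which sets chromosome alignment, by 0.79, ASPM, a spindle-pole protein, by 0.72, and TPX2, the activator of AURKA, by 0.70. Of 26 spindle-checkpoint and centromere genes, 8 fell, beside the same 5.18%. BUB1B, which encodes the checkpoint protein BUBR1, was dim, with 1.57, 1.76 and 1.45 in carbon 3 h cells and 3.46, 4.09 and 3.28 in 0 Gy cells (-1.18 ± 0.22, adjusted p = 0.00238). BUB1, its partner kinase, read 2.76, 2.71 and 3.05 in carbon 3 h cells, against 5.99, 5.98 and 5.13 in 0 Gy cells (-1.0 ± 0.11). CENPA, the histone of the centromere, read 6.59, 5.89 and 7.49 in carbon 3 h cells and 12.1, 13.4 and 11.6 in 0 Gy cells (-0.90 ± 0.10), and HJURP, its chaperone, read 17.4, 16.2 and 15.7 against 34.3, 26.7 and 31.3 (-0.90 ± 0.12). The groups were separate for each gene whose values are given here. For KIF20A, BUB1B and BUB1 this was a condition of their choice.

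Earlier cell-cycle genes moved less. Of 38 measured genes of G1/S and DNA replication, 4 fell and 1 rose, against 5.18% and 2.98% of all named genes, with a median of -0.04. The clamp-loader subunits RFC5 and RFC2 fell by 0.50 ± 0.09 and 0.46 ± 0.09, CDK2 by 0.45 ± 0.11 and the helicase subunit MCM6 by 0.42 ± 0.09, while TYMS, thymidylate synthase, rose by 0.29. PCNA, also a p53 target, changed by -0.51 without a call. Of 15 histone genes, 3 fell, H4C3 by 0.44 ± 0.09, H1-10 by 0.43 ± 0.10 and H2AX by 0.37 ± 0.08. H4C4, a histone H4 gene outside that list, read 3.82, 4.23 and 4.25 in carbon 3 h cells and 7, 8.04 and 7.52 in 0 Gy cells (-0.87 ± 0.12, adjusted p = 0.000213). Histone genes of one class are near copies of each other, so which copies a probe reads is uncertain. None of 18 checkpoint kinases and mediators and none of 20 double-strand break repair genes passed, with medians of -0.03 and 0.01.

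Signalling feedback genes gave mixed counts, beside 5.18% lower and 2.98% higher among all named genes, and were not tested against those shares. Of 12 MAPK feedback genes, 2 fell: SPRY2, a brake on receptor tyrosine kinases (-0.71 ± 0.14), and DUSP6, the ERK phosphatase (-0.38 ± 0.11), whose call was lost with median centring (-0.25, adjusted p = 0.226) and on values as deposited (-0.22, adjusted p = 0.411). Of 16 BMP and TGF-beta feedback genes, 4 fell and 2 rose. ID1, a BMP-induced inhibitor of differentiation factors, read 3.39, 2.95 and 3.84 in carbon 3 h cells, against 6.39, 7.09 and 5.76 in 0 Gy cells (-0.92 ± 0.16, adjusted p = 0.00128), and its other probe fell by 0.97. ID3 fell by 0.47 ± 0.11 and ID2 by 0.38, and ID3 lost its call with median centring (-0.34, adjusted p = 0.114) and on values as deposited (-0.31, adjusted p = 0.233). PMEPA1, a TGF-beta-induced inhibitor of SMAD signalling, rose by 0.52 ± 0.09 and TGIF2, a SMAD corepressor, by 0.38. Of 22 immediate early genes KLF4 (0.44 ± 0.12) and FOSL1 (0.37 ± 0.10) rose and KLF10 fell (-1.02 ± 0.18). KLF4 lost its call in 4 and FOSL1 in 3 of the 6 fits that left out 1 array.

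Calls in other lists stood beside 5.18% lower and 2.98% higher among all named genes, and were not tested against those shares. Splicing factor kinases and SR proteins, taken as 1 list, showed 4 of 17 lower and none higher (median -0.24): SRSF1 (-0.53 ± 0.13), TRA2B (-0.46 ± 0.10), SRSF10 (-0.44 ± 0.08) and SRSF7 (-0.37 ± 0.09). Other probes of these genes changed by 0.12 and, with a call, -0.49 for SRSF1, -0.06 for TRA2B, -0.12 for SRSF10 and -0.02 for SRSF7, and no call for them held on the mean of all kept probes (adjusted p 0.0667 to 0.186). CLK1, a kinase of SR proteins, did not pass (0.23 ± 0.12, adjusted p = 0.25). Heat shock chaperones had 3 of 14 lower (HSPH1, HSPD1 and HSP90AB1, by 0.41 to 0.52), and on values as deposited none of the 3 passed (adjusted p 0.0586 to 0.438). NRF2 targets had 3 of 14 lower, namely GPX4, the enzyme that reduces lipid peroxides (-0.82 ± 0.21), TALDO1 (-0.62 ± 0.15) and TXN, thioredoxin (-0.55 ± 0.13). GPX4 lost its call in 4 of the 6 fits that left out 1 array (adjusted p 0.0642 to 0.0881). Of melanocyte genes 2 of 22 fell. TYRP1, a melanosome enzyme, read 19.4, 13 and 13.5 in carbon 3 h cells and 31.7, 21.7 and 25.6 in 0 Gy cells (-0.79 ± 0.16), and the other was CDK2, named above. None of 27 ribosomal protein genes passed (median -0.05).

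The largest single fall was that of NEAT1, the long noncoding RNA that scaffolds paraspeckles. It read 12.8, 8.47 and 9.22 in carbon 3 h cells, against 51.4, 38.5 and 24.6 in 0 Gy cells (-1.87 ± 0.30, adjusted p = 8.70e-04). The groups did not overlap, which was a condition of its choice, although the 0 Gy arrays differed among themselves. A further NEAT1 probe fell by 1.5. On that probe the unirradiated arrays of the carbon set lay 1.36 above those of the X-ray set (adjusted p = 5.34e-05), the X-ray change was -0.00 (difference between the beams -1.50, adjusted p = 0.00793) and the irradiated arrays of the beams differed by -0.14, whereas the brighter probe changed by -1.55 after X-rays. None of the other 6 measured paraspeckle genes passed. A pattern between arrays ran beside this fall. In all 6 HMV-II groups, irradiated or not, array 1 lay above array 3 for NEAT1, and the same held for UBE2V2, MYL12A, OSTC, PTMA, SPDL1, COX6C, KLF10 and GOLT1B. These are 9 of the 15 largest falls, against 0 of the 15 largest rises, 8.12% of all probes called lower and 2.13% of all probes. For COX6C, a respiratory chain subunit, the other probe changed by 0.13 against -1.02, and for OAZ1, the antizyme of polyamine synthesis, by 0.34 against -1.06. The part of this array order in the falls was not tested. Among the 33 G2 and mitosis genes called lower, 2 showed it, SPDL1 and KIF20B, and of other falls given above those of GPX4, TALDO1 and TYRP1 showed it too.

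A second pattern followed the probe numbers. Grouped by the last 3 digits of the probe number into 8 bands, the share of probes called lower ran from 2.70% (digits 15 to 28) to 14.1% (digits 85 to 98). The median change in these bands was -0.01 and -0.12. In 136 blocks made from leading and last digits together, the median change ran from -0.20 to 0.17, and the share called lower from 0.403% to 24.9%. When each array was centred on its median deviation within each block, 4082 probes passed, of which 51.6% were higher, against 24.0% before. The counts for p53 targets and for G2 and mitosis genes were 24 higher and 37 lower with this centring, against 20 and 33. What the numbers stand for is unknown. With this centring the excess of lower over higher calls among all probes did not remain. The centring removes the shift of each block by construction, so this loss is largely built in and is no finding.

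**Figure D3:**
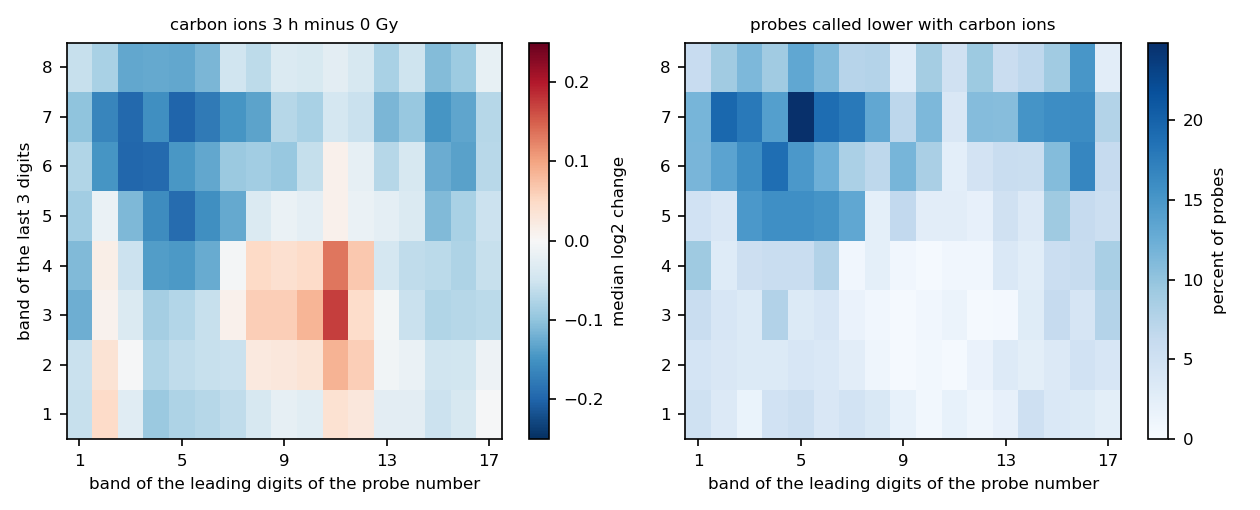
Median log2 change (carbon ions 3 h minus 0 Gy, left) and percent of probes called lower (right) in HMV-II, by band of the leading digits (17 bands) and of the last 3 digits (8 bands) of the probe number. The lowest medians, down to -0.20, lie in bands 5 to 7 of the last digits.

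X-rays of the same dose were read at 3 h against their own 0 Gy arrays. There 188 of 12577 named genes rose (1.49%) and 69 fell (0.549%). Of the 52 p53 targets, 20 rose and 0 fell after X-rays (median 0.27), against 20 and 1 after carbon ions (median 0.17). Carbon and X-ray changes of single targets were 0.91 and 0.63 for CDKN1A, 0.73 and 0.77 for MDM2, 0.83 and 0.82 for TP53INP1, 0.97 and 1.22 for ACER2. The difference for MDM2 was -0.03, with a 95% interval of -0.35 to 0.28, and for CDKN1A it was 0.27 (-0.01 to 0.56). In the test of the difference between the beams, CCNG1 alone of the p53 targets passed, with -0.49 after carbon ions and 0.43 after X-rays (difference -0.92, adjusted p = 0.0179). For CCNG1 the unirradiated arrays of the carbon set lay 0.92 above those of the X-ray set (adjusted p = 0.000202), while the irradiated arrays of the beams differed by 0.00 (adjusted p = 0.986). Over all probes 195 passed this test (0.677%), and over all named genes 2 differed upward (0.0159%) and 77 downward (0.612%) with carbon ions.

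Of the 84 G2 and mitosis genes, 33 fell after carbon ions and 2 after X-rays (medians -0.24 and -0.07). Among all named genes 5.18% and 0.549% fell. The change was lower with carbon ions than with X-rays for 67 of 84 genes, with a median difference of -0.21, against -0.07 over all probes. The difference passed downward for 10, against 0.612% of all named genes. PIF1 changed by -1.43 with carbon ions and -0.40 with X-rays (difference -1.03, 95% interval -1.46 to -0.60, adjusted p = 0.0268). The other PIF1 probe differed by -0.65 without a call (adjusted p = 0.0732). For NDC80, a kinetochore subunit, the changes were -0.81 and 0.05 (adjusted p = 0.00887), for HJURP -0.90 and -0.05, for BUB1 -1.0 and -0.19, and for KIF20A -1.10 and -0.32. CENPA, CCNA2, AURKA, FAM83D and PSRC1 completed the 10 genes. The unirradiated arrays of the carbon and X-ray sets differed by 0.04 for PIF1, 0.01 for CENPA and 0.09 for HJURP without a call, but by 0.60 for KIF20A (adjusted p = 0.00274), 0.39 for BUB1 and -0.29 for FAM83D (adjusted p = 0.0226). Between irradiated arrays alone PIF1 differed by -0.99, FAM83D by -1.0 and NDC80 by -0.72, lower after carbon ions, and KIF20A by -0.17 without a call (adjusted p = 0.324). The counts of the difference depended on scaling and on single arrays. With median centring 1 of 84 genes passed and on values as deposited 0, where 53 of 84 were below 0, and leaving out any 1 of 10 of the 12 arrays gave 2 to 6, the fewest without array 2 of the X-ray 0 Gy group. It was 9 without array 3 of the carbon 3 h group and 11 without array 1 of the X-ray 3 h group. The 2 sets of unirradiated arrays also differed from each other, in 19.0% of named genes, with 7.69% higher and 11.3% lower in the carbon set, and so did 5 G2 and mitosis genes upward and 12 downward (median difference 0.02). Between the irradiated arrays alone, 30 of the 84 were lower after carbon ions than after X-rays and 0 higher (median -0.20), against 16% lower and 3.43% higher among all named genes.

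**Figure D4:**
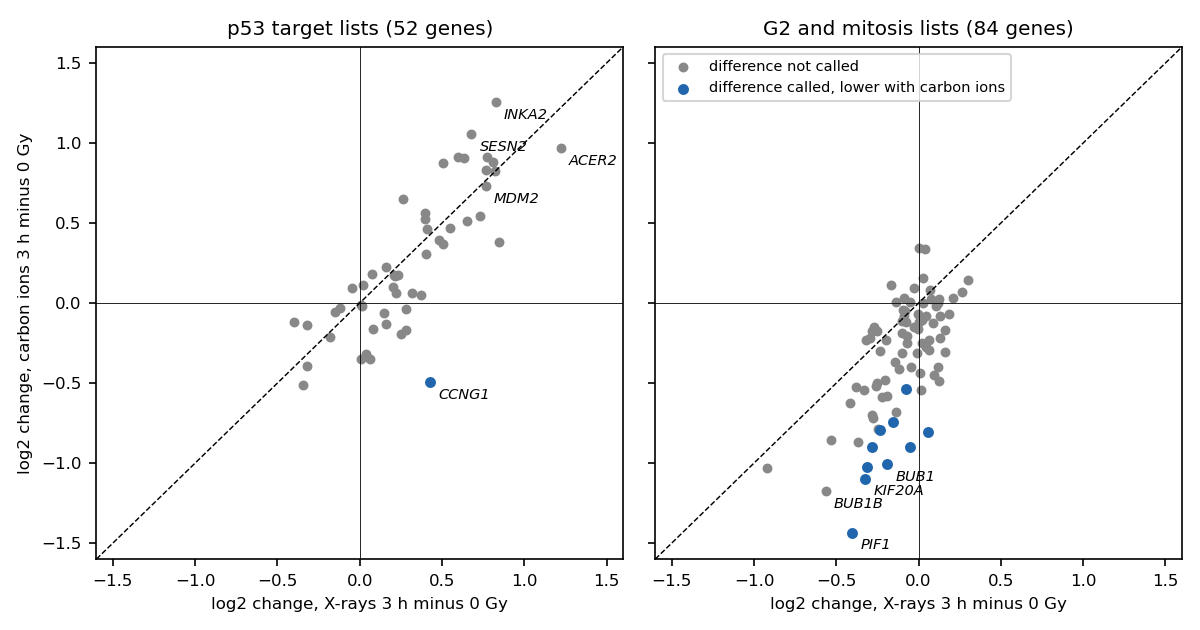
Log2 change at 3 h after carbon ions (vertical) against that after X-rays (horizontal), each against its own 0 Gy arrays, for 52 p53 targets (left) and 84 G2 and mitosis genes (right) in HMV-II. The dashed line marks equal change. Of the p53 targets 31 of 52 lie below it, CCNG1 farthest, 67 of 84 G2 and mitosis genes lie below it, and blue points passed the test of the difference.

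Over all 28791 probes the changes after the 2 beams correlated at r = 0.44 (Spearman 0.39), a figure across probes, which are not independent. Of probes called higher after carbon ions 15.3% were called higher after X-rays (91 probes, 27.0% of the X-ray calls), and of those called lower 6.84% (129 probes, 54.2% of the X-ray calls). X-rays alone called 1.17% of probes higher and 0.827% lower. DAGLB, which makes the lipid messenger 2-arachidonoylglycerol, had the largest difference between the beams among named genes, at -0.87 after carbon ions and 0.48 after X-rays (difference -1.35, adjusted p = 0.0099), each gene read from its brightest probe. Its unirradiated arrays of the carbon set lay 0.52 above those of the X-ray set (adjusted p = 0.0146), and it was dim, with 0.49, 0.63 and 0.60 on the carbon 3 h arrays. RBM3, the cold-inducible RNA-binding protein, changed by -0.71 and 0.23 (adjusted p = 0.0212), its unirradiated arrays of the carbon set lay 0.85 above those of the X-ray set, and its irradiated arrays differed by -0.10 without a call. ZNF417 and GOLIM4 passed the other way, with differences of 0.71 and 0.63.

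Both gene groups lay further from 0 at 3 h than at 1 h. Irradiated arrays were compared directly, without the 0 Gy arrays. Of named genes 432 were higher (3.43%) and 321 lower (2.55%) at 3 h than at 1 h. In the p53 lists 20 genes stood higher at 3 h and 0 lower, and of the G2 and mitosis genes 0 were higher and 31 lower. ACER2, EPHA2, INKA2 and FAS had the largest positive differences, of 1.11, 1.00, 0.98 and 0.94. Against the 0 Gy arrays, which both times share, FAS changed by 0.91 at 3 h and -0.03 at 1 h, and PIF1 by -1.43 and -0.17. Some genes had already moved at 1 h. GADD45A changed by 0.88 at 3 h and 0.53 at 1 h (adjusted p at 1 h = 0.00315), USP53 by 1.09 and 0.67, NFKBIA by 0.37 and 0.49, and ID1 by -0.92 and -0.91. CCN1, a matricellular early-response gene, stood lower at 3 h than at 1 h by 1.00 (adjusted p = 6.2e-05), with changes of -0.34 at 3 h and 0.67 at 1 h against 0 Gy. Of all 1299 probes called between the times (4.51%) 56.8% were higher at 3 h, against 30.3% of 832 on values as deposited and 39.97% of 1894 with probe-number centring. On values as deposited 11 p53 targets and 29 G2 and mitosis genes passed this comparison, and without array 3 of the 3 h group 13 p53 targets did.

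HMV-II was set against the mean change of the other 5 lines under the same carbon-ion contrast. Among 11942 named genes 124 changed more upward (1.04%) and 209 more downward (1.75%) in HMV-II. Of the 48 p53 targets in this test, 1 differed upward and 2 downward. INKA2 rose by 1.26 in HMV-II and by 0.66 on average in the other lines, which ran from 0.17 to 1.23 (difference 0.60, adjusted p = 8.20e-04). A further INKA2 probe, outside this test, did not put HMV-II highest. It changed by 0.99 in HMV-II, 1.46 in 92-1, 1.37 in Colo679, 1.02 in C32TG and 0.14 in HMV-I. GDF15 changed by 0.10 in HMV-II and 0.84 on average elsewhere, with 2.24 in 92-1, 1.80 in C32TG and 0.03 to 0.09 in the other 3 (difference -0.75, adjusted p = 6.69e-06). ZMAT3, a p53-induced RNA-binding protein, changed by -0.19 in HMV-II and 0.31 elsewhere. For SESN2, FAS and TP53INP1 the HMV-II change (1.06, 0.91 and 0.83) lay inside the range of the other lines, which for SESN2 ran from 0.22 to 1.77.

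Of NF-kB genes 3 of 17 rose more in HMV-II, against 1.04% of all named genes in this test. They were RELB (0.88 against 0.32 elsewhere), NFKBIE (0.47 against 0.17) and RELA (0.29 against -0.00). USP53 rose by 1.09 in HMV-II and 0.34 on average in the others, all 5 of which were above 0 (adjusted p = 7.86e-05), and BRAP by 0.74 and 0.14. Of 74 G2 and mitosis genes 5 changed more downward in HMV-II, against 1.75% of all named genes. They were PIF1, FAM83D, HJURP, CCNB1 and PKMYT1, of which PKMYT1 had no call in HMV-II itself (-0.40, adjusted p = 0.08). The list medians were -0.24 over the 84 genes in HMV-II and -0.23 in the other lines. PIF1 was below 0 in all 6 lines, at -1.43 in HMV-II and -1.11 on average elsewhere, and FAM83D changed by -1.02 and -0.56. On the other PIF1 probe the difference of HMV-II from the other lines was -0.41 without a call (adjusted p = 0.0635). KIF20A, BUB1B and CENPA were also below 0 in all 5 other lines, with mean changes of -0.67, -0.60 and -0.65. Of the 610 probes called between HMV-II and the other lines (2.27%) 29.0% were more upward in HMV-II, against 49.4% with median centring, 61.6% on values as deposited and 51.8% with probe-number centring, so the balance of directions depended on scaling. The line test rests on the spread between arrays, with each line present once.

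**Figure D5:**
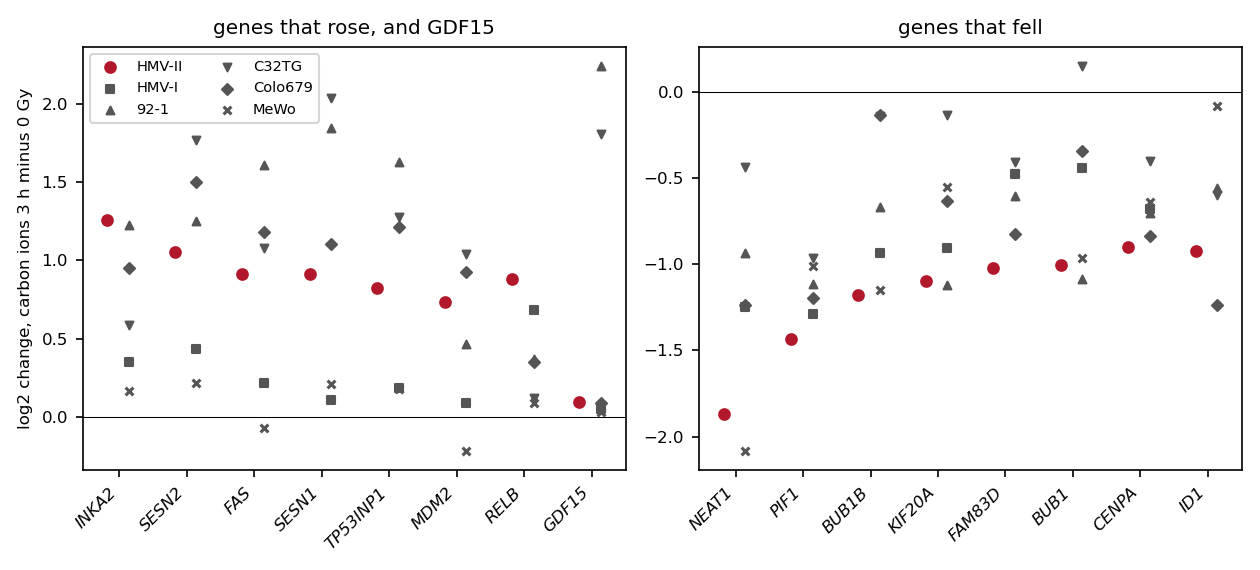
Log2 change (carbon ions 3 h minus 0 Gy) of 16 genes in HMV-II (red, left of each pair) and in the other 5 lines (grey symbols, right). Each gene is read from its brightest probe. A further INKA2 probe, not shown, put HMV-II (0.99) below 92-1 (1.46), Colo679 (1.37) and C32TG (1.02) and above HMV-I (0.14). On the probes shown HMV-II lies at the top of the lines for INKA2 and RELB and below all 5 for PIF1. HMV-II lies inside their range for SESN2, FAS and MDM2. Its GDF15 change is 0.10, against 2.24 in 92-1.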

How the data were processed

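The deposited values were single-colour intensities, 1 column of 54359 probes per array, on a scale close to the median spot of each array; which further steps the authors took before deposit is not given in the sources used here. Per the labels' protocols, total RNA was extracted with ISOGEN and RNeasy, labelled with biotin and hybridised to CodeLink human whole-genome arrays following the maker's manual. Groups came from the array titles. Values were taken to log2, with missing values left missing, and quantile normalized over all 108 arrays. Probes lacking a value on at most 10% of arrays, with a value in each group and a mean level above percentile 40, were kept (32060), and 28791 had a value on all 18 HMV-II arrays. These 18 arrays, in 6 groups, were fitted together with limma 3.58.1 in R 4.3.3 (eBayes with an intensity trend, Benjamini-Hochberg adjustment over all probes at 0.05, 12 residual degrees of freedom). Every adjusted p is from limma. The lines were compared in a fit of 36 carbon-ion arrays over 26872 probes. No depth exists for arrays; the number of arrays limits precision, and the median 95% half-interval of a change was 0.24 log2 units.

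Of all probes 24377 were annotated, 23472 with 1 symbol and 905 with several, which were not named; 23434 matched RefSeq, and 29982 probes were unnamed here. A gene was read from its kept probe of highest mean. Members and all 35 gene lists (787 genes, 594 measured) were chosen with earlier results of these data known. Genes were named by rule. The rule took the 15 largest called rises and 15 largest called falls with separate groups, and a set always named. It also took up to 4 called members per list, any called against its list and up to 2 bright members without a call. Of the other comparisons it took the 6 largest each way, and the text gives only some of these. Further list members were chosen after their values were seen. On simulated data 50 of 100 changes of 0.5 and 94 of 100 of 1 log2 unit were recovered over 28791 probes, with 11 false calls. The simulated noise was independent between probes and lacked the array-order and probe-number patterns. The number of false calls in the real data therefore cannot be read from it. Same-numbered arrays of the compared groups correlated at 0.14, -0.04 and 0.12 in their deviations and were not paired. Alternatives covered centring, values as deposited, filters, probe choice, the set of arrays, each array left out and, chosen after seeing the data, centring by probe number. Promoters are RefSeq windows on GRCh38.p14, the first listed per gene. Whether fewer cells of a kind or less RNA per cell underlies a change cannot be told apart in bulk RNA.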

Additional observations from a re-analysis of the deposited data

Results flagged for a closer look

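In HMV-II the change after carbon ions differed from that after X-rays, by a test of the difference itself (limma, adjusted p under 0.05 over all probes), for the 8 genes given here, which were named for their carbon 3 h change; further genes that passed are in the report. Among genes of G2 phase and mitosis the difference, carbon minus X-rays, was -1.03 for PIF1, -0.85 for HJURP, -0.81 for BUB1, -0.77 for KIF20A, -0.71 for FAM83D, -0.62 for CENPA and -0.56 for AURKA, with adjusted p of 0.0163 to 0.0432. A further PIF1 probe differed by -0.65 without a call (adjusted p = 0.0732). For the p53 target CCNG1 the difference was -0.92 (adjusted p = 0.0179). For CCNG1 and KIF20A the unirradiated arrays of the carbon set stood above those of the X-ray set by 0.92 and 0.60, and the irradiated arrays of the beams differed by 0.00 and -0.17 without a call; for FAM83D the unirradiated arrays differed by -0.29. All 8 kept their sign in every alternative run, but these runs reuse the arrays on which the genes were picked. None of the 8 passed with median centring or on values as deposited.

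For the 21 genes given next, also named for their carbon 3 h change, the carbon-ion change at 3 h differed between HMV-II and the mean of the other 5 lines by the same kind of test. HMV-II minus the others was 0.76 for USP53 (adjusted p = 7.86e-05), 0.60 for INKA2, 0.60 for BRAP, 0.56 for RELB and 0.31 for NFKBIE. Further probes of these and later genes differed by 0.00 for USP53, 0.07 for INKA2, -0.02 for MRPL2 and -0.06 for UQCRB, none with a call. A further PIF1 probe differed by -0.41 without a call (adjusted p = 0.0635). Another INKA2 probe, outside this test, changed by 0.99 in HMV-II, 1.46 in 92-1, 1.37 in Colo679, 1.02 in C32TG and 0.14 in HMV-I. GDF15 differed by -0.75 (adjusted p = 6.69e-06). It changed by 0.10 in HMV-II, 2.24 in 92-1, 1.80 in C32TG and 0.03 to 0.09 in the rest. In HMV-II its carbon 3 h values lay 0.40 to 0.45 log2 units below the highest spot, near the top of the scale. Mitotic genes differed by -0.47 for FAM83D, -0.40 for HJURP and -0.32 for PIF1 (adjusted p = 0.0457), and the replication genes MCM6 and RFC5 both by -0.44. Histone genes differed by -0.60 for H4C3, -0.51 for H1-10 and -0.30 for H2AX; their changes were -0.44, -0.43 and -0.37 in HMV-II and 0.17, 0.07 and -0.07 on average in the other lines. Genes named for other comparisons also passed, among them H4C4 at -0.89 (adjusted p = 7.86e-05), DAGLB at -0.88, RBM3 at -0.77 and ZNF417 at 0.43. RNF32-DT at 1.05, EMCN at 0.89 and CSF3R at 0.78, all dim, passed with larger upward differences than USP53. CEACAM5 at -0.85, ALDOC at -0.81 and PRMT1 at -0.80 passed downward. The splicing genes went both ways, with CLK1 at 0.37 and TRA2B at -0.48. Subunits of the mitochondrial ribosome did so too, with MRPL2 at 0.37, MRPL23 at -0.50 and MRPL15 at -0.47, and the respiratory chain subunit UQCRB differed by 0.28 (adjusted p = 0.0485). GOLT1B, a Golgi transport gene, differed by -0.80. All 21 kept their sign in every alternative run, but these runs reuse the arrays on which the genes were picked. Of them 13 passed with median centring, 10 on values as deposited and 15 with probe-number centring, and 10 to 18 when 1 array was left out.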

How the results depend on the processing

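No named gene's change turned its sign, but the balance of higher and lower calls did. For carbon 3 h against 0 Gy the share higher was 24.0%, with median centring 28.2%. With probe-number centring, which pulls block medians toward 0, it was 51.6%. For 3 h against 1 h the share was 56.8% and 30.3% as deposited, and for HMV-II against the other lines 29.0% and 61.6% as deposited. Carbon 3 h against 0 Gy gave 2479 called probes, 1521 on values as deposited, 4082 with probe-number centring and 1250 to 2134 with 1 array left out. The counts of p53 targets higher (18 to 24) and of G2 and mitosis genes lower (26 to 37) stayed within 1.5 times of 20 and 33 in all alternatives. The difference between the beams gave 195 probes, 34 with median centring, 4 as deposited and 13 (without array 2 of the X-ray 0 Gy group) to 287 with 1 array left out. Its 10 G2 and mitosis genes became 1 with median centring, 0 as deposited (where all 84 had a median difference of -0.06, against 0.05 over all probes) and 2 to 11 with 1 array left out. The comparison of 3 h with 1 h gave 1299 probes, 832 as deposited and 458 to 975 with 1 array left out (458 and 613 without arrays 1 and 3 of the 3 h group, 780 and 629 without arrays 1 and 2 of the 1 h group); its 20 p53 targets became 11 as deposited and 13 to 16 with 1 array left out. HMV-II against the other lines gave 610 probes, and 196 to 630 with 1 array left out (196 and 349 without arrays 1 and 2 of the HMV-II 3 h group, 347 and 247 without arrays 2 and 3 of its 0 Gy group). With the replicate block, which the labels do not call a pairing, these 4 counts of probes were 2940, 272, 1493 and 877. Of 92 named genes 66 kept their call status as deposited, 81 with median centring, 80 on the mean of all kept probes and 87 with probe-number centring, and 438 of 552 values did with 1 array left out. CLK1 passed with probe-number centring (0.30, adjusted p = 0.0164). The cause of these shifts was not tested. At 3 arrays a group, half-intervals of about 0.24 log2 units limit what can be called.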

Other observations

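Calls among genes of metabolism and protein handling stood beside 5.18% lower and 2.98% higher among all named genes, and were not tested against those shares. Among 22 sterol and fatty acid synthesis genes MSMO1, a sterol oxidase, changed by -0.61, and among 20 hypoxia and glycolysis genes P4HA1, the collagen prolyl hydroxylase, changed by -0.55, SLC2A1, the glucose transporter, by -0.43 and GAPDH by -0.21. HERPUD1, an endoplasmic reticulum stress gene, changed by -0.73 (another probe by 0.15) and CHAC1, a glutathione-degrading enzyme, by 0.44, as the calls among 22 genes of the unfolded protein and integrated stress response. Many called probes carry no gene name here. Unnamed probes were 47.5% of those tested, 24.1% of those called higher and 57.7% of those called lower. Among 188 called genes with a further kept probe, 89 had one of opposite sign and 29 had one called in the same direction.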
